A study of Mus musculus with 3 samples.

Results

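The genes for the proteins of the mitochondrial ribosome were examined for peaks of the chromatin remodeler CHD7 and the transcription factor SOX2 in the otocyst, the epithelial vesicle that gives rise to the inner ear. Members were taken by symbol, as protein-coding genes of the RefSeq table of GRCm38.p6 (mm10) named Mrpl or Mrps and a number, which gave 78 of 21883 protein-coding genes. Cells came from 34 wild-type mouse otocysts at E10.5, which were pooled and split for CUT&Tag, a method in which Tn5 transposase is tethered by an antibody and cuts nearby DNA. One sample of the pool met a CHD7 antibody and another a SOX2 antibody; the control without primary antibody is not analysed here. Each antibody has 1 library, so no value has a replicate check, and a peak does not by itself show that the protein binds there.

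Mitochondria make the core subunits of the respiratory chain on their own ribosomes. The ribosomal RNA of these particles comes from mitochondrial DNA, but their proteins are all encoded in the nucleus, made in the cytosol and imported. MRPL genes encode proteins of the large subunit and MRPS genes mostly those of the small subunit; part of them descend from bacterial ribosomal proteins and part are found only in mitochondria. Such genes are used in nearly every cell type, and their promoters are known for sites of the factors NRF1, GABP (an ETS factor) and YY1.

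The deposited lists held 33035 CHD7 peaks and 155548 SOX2 peaks, with median widths of 950 and 650 bases. Each peak carries the authors' total coverage signal, which is used here only within its own list. The lowest total signal was 433 in the CHD7 list and 733 in the SOX2 list, and the medians were 651 and 997. The lists do not give sequencing depth, which is unknown here. Intervals are exact binomial (Clopper-Pearson) at 95% and cover counting error only.

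RefSeq promoters of the same build, from 250 bases before to 50 bases after a start site, were found for 69 of the 78 members. Those printed here belong to the member with the most signal in both lists (Mrps18b), the members with the strongest single CHD7 and SOX2 peaks (Mrps14 and Mrpl50), a member that shares its promoter region with another member (Mrps11), a member with CHD7 alone (Mrpl49) and members with neither (Mrpl27 and Mrps18a). Each runs 5′ to 3′ on the strand of its gene, and capitals mark matches, on either strand, to the ETS core CCGGAAG, the NRF1 core GCGCATGCG or the YY1 core AAGATGGCG.
Mrps18b (chr17:35916391-35916690, minus strand): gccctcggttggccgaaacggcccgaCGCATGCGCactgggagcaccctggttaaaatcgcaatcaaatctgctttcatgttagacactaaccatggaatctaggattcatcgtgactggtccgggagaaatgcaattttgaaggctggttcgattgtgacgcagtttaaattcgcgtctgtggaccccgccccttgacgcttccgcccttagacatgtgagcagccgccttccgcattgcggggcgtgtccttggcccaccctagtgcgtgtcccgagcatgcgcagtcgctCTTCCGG
Mrps14 (chr1:160194965-160195264, plus strand): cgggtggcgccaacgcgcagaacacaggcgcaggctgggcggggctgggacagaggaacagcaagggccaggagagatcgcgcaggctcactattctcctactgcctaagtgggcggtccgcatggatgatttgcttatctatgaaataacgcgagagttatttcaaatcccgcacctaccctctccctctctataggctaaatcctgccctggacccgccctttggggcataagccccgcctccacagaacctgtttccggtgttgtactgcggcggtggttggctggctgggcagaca
Mrpl50 (chr4:49521034-49521333, minus strand): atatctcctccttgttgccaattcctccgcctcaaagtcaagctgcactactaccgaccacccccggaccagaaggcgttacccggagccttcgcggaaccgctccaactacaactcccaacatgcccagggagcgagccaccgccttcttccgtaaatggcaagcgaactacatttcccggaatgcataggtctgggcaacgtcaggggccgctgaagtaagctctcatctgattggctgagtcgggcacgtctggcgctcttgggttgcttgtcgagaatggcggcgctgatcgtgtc
Mrps11 (chr7:78782881-78783180, plus strand): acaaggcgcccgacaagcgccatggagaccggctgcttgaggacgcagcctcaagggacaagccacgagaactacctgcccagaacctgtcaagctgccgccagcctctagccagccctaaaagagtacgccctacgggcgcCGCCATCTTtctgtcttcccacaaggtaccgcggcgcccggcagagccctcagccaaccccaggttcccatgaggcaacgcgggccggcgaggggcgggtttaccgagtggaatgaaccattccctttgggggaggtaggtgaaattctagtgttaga
Mrpl49 (chr19:6057706-6058005, minus strand): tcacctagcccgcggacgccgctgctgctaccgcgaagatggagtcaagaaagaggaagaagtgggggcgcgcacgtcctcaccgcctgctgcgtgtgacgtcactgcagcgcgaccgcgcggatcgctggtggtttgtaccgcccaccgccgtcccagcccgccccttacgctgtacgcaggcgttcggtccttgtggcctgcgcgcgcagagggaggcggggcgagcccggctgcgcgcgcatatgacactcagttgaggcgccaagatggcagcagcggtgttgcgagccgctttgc
Mrpl27 (chr11:94653541-94653840, plus strand): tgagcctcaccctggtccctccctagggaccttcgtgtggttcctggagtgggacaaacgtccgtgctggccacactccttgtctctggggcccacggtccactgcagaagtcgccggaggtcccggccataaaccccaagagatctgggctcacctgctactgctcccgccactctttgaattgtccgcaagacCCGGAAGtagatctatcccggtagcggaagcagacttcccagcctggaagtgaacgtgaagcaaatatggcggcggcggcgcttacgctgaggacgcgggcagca
Mrps18a (chr17:46110754-46111053, plus strand): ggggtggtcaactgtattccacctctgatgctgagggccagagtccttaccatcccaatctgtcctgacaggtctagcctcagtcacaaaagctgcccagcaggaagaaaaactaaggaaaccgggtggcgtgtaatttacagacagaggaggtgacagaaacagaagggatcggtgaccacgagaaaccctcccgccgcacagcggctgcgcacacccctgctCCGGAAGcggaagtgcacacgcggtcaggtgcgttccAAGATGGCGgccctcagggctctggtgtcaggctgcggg
Mrps18b holds an ETS and an NRF1 match, Mrps11 a YY1 match, Mrpl27 an ETS match and Mrps18a an ETS and a YY1 match, so 2 of these promoters with matches lay under no peak of either list.

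SOX2 was present at the ends of most members and CHD7 at fewer. A SOX2 peak lay within 1 kb of either end of 58 of 78 members, or 74.4% (interval 63.2% to 83.6%), where 59.7% of all protein-coding genes had one. A CHD7 peak lay there at 31 of 78, or 39.7% (28.8% to 51.5%), where 30.8% of all genes had one, a value inside the members' interval. Without olfactory and vomeronasal receptor genes, the background was 32.9% for CHD7 and 63.0% for SOX2. Both were found at 28 members (35.9%, all genes 28.3%) and SOX2 alone at 30 (38.5%, all genes 31.4%). CHD7 alone was at 3 (3.85%, all genes 2.51%) and neither at 17 (21.8%, all genes 37.8%). Of the members with CHD7 90.3% also had SOX2, near the 91.8% of all genes with CHD7. No test of the list was made, since it was chosen with earlier results of these data known, and the shares are a description.

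**Figure D1:**
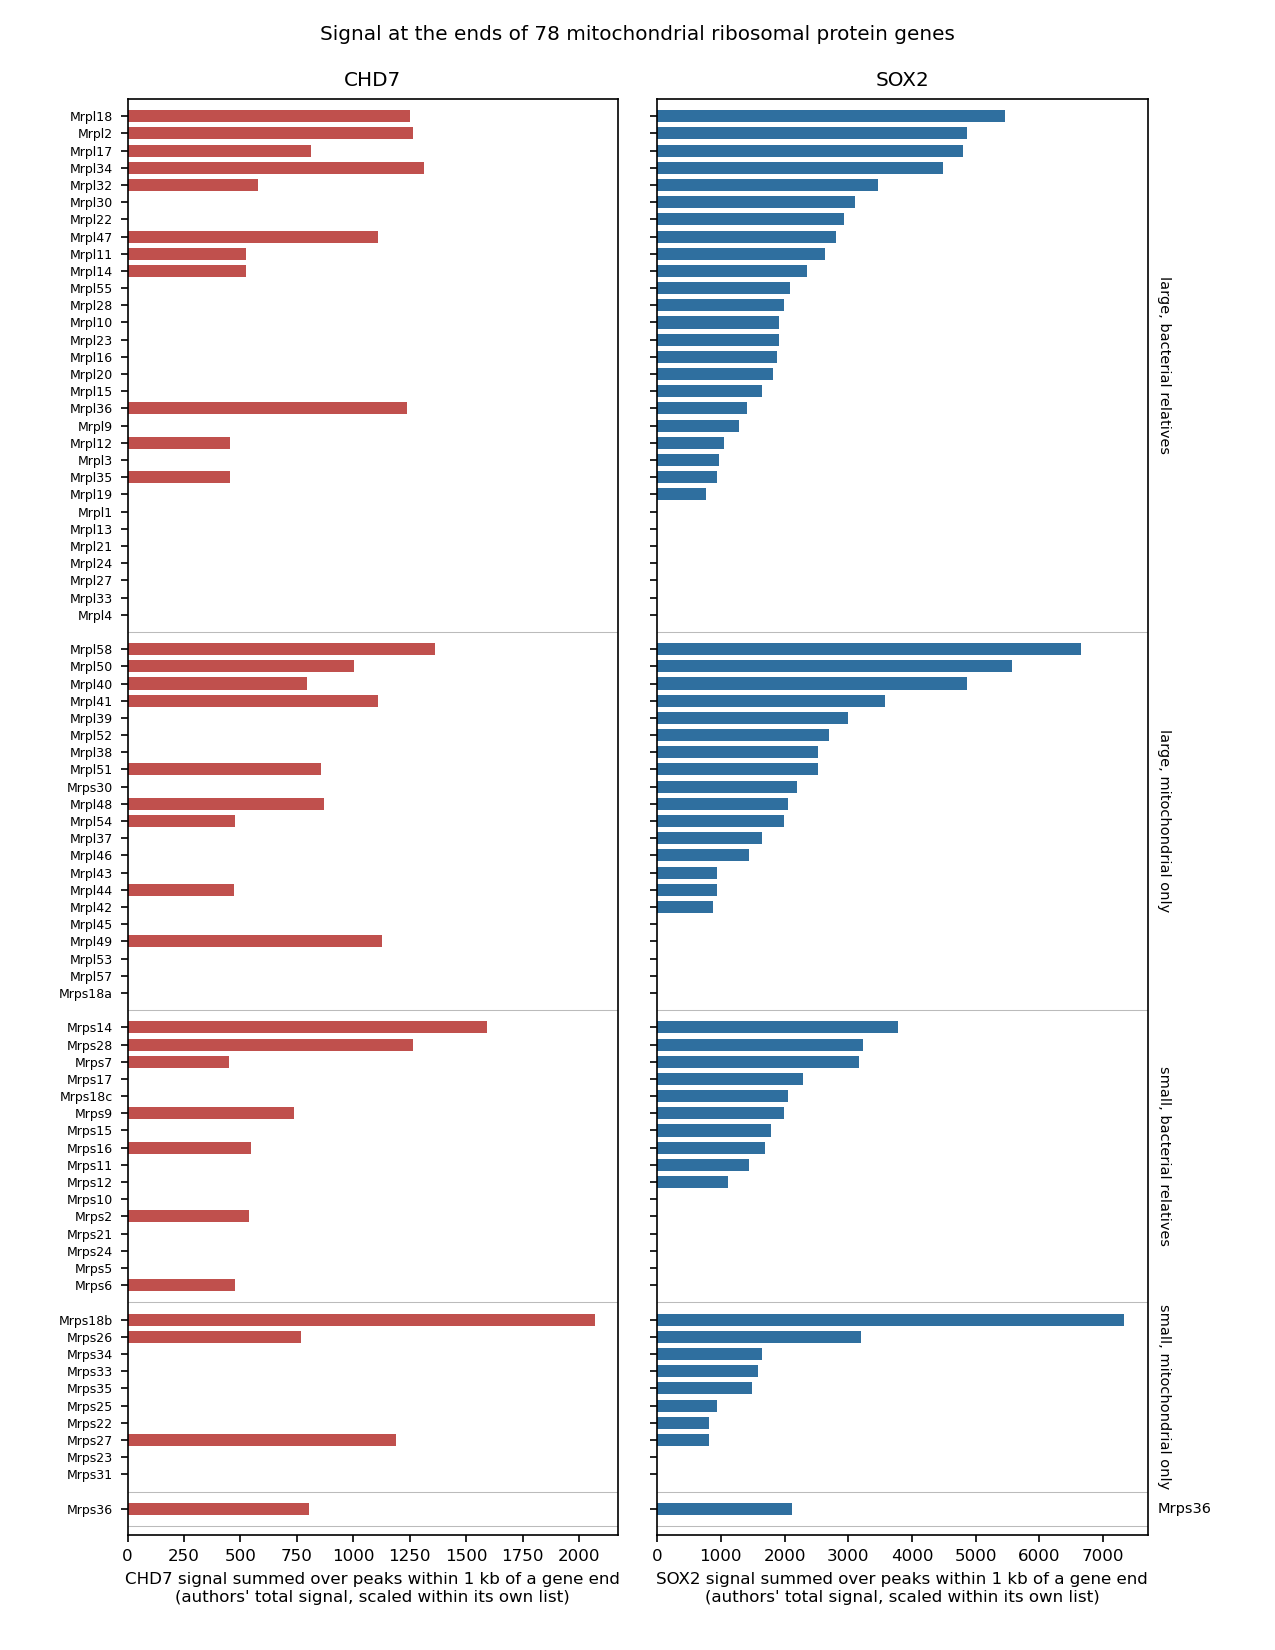
Bars give the authors' total signal summed over the peaks within 1 kb of either end of each of the 78 members, CHD7 on the left and SOX2 on the right, grouped by subunit and origin and ordered by SOX2 signal; the horizontal scales belong to separate lists and cannot be compared. Mrps18b has the longest bar in both panels (2068 and 7331), and 17 members have no bar in either.

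The subunits and the origins of the proteins gave like counts. CHD7 was at 20 of 51 genes of the large subunit and 10 of 26 of the small, and SOX2 at 39 of 51 and 18 of 26. Among large subunit genes with bacterial relatives CHD7 was at 11 of 30 and SOX2 at 23. Among large subunit genes found only in mitochondria they were at 9 and 16 of 21. For the small subunit the counts were 7 and 10 of 16 genes with bacterial relatives, and 3 and 8 of 10 without. The intervals of these shares overlapped widely, from 6.67% to 65.2% for CHD7 at the smallest group. Mrps36 was left out of these groups because its product is known as a subunit of the α-ketoglutarate dehydrogenase complex; it had both (801.6 for CHD7 and 2111 for SOX2).

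Mrps18b, a small subunit gene counted here among those specific to mitochondria, carried the most end signal of all members. Its CHD7 peaks summed to 2068 and its SOX2 peaks to 7331, above 97.7% and 97.6% of all protein-coding genes. At its start, CHD7 lay at chr17:35915851-35917100 (total signal 1380) and SOX2 at chr17:35916101-35917400 (4868), over the promoter printed above. At its finish were a CHD7 peak of 688 and SOX2 peaks of 1173 and 1290, next to the gene Atat1. Of the genes with a like symbol, Mrps18c, counted among those with bacterial relatives, had SOX2 alone (2053), and Mrps18a, a large subunit gene, had no peak at either end.

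Mrps14, which encodes a small subunit protein with a bacterial relative, had the strongest single CHD7 peak of the members. This peak, at chr1:160194401-160195800, had a total signal of 1594 and ranked above 90.7% of the CHD7 list; the SOX2 peak inside it, at chr1:160194701-160195500, had 3783. Mrpl50 had the strongest single SOX2 peak, at chr4:49520651-49521800, with a total signal of 5571 and above 98.8% of its list. CHD7 covered the same promoter at chr4:49520651-49521700 (1002). Mrpl18 had 5454 for SOX2 and 1252 for CHD7, on a promoter region it shares with Tcp1, which encodes a subunit of the cytosolic chaperonin.

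In Mrpl58, the gene of a peptidyl-tRNA hydrolase built into the large subunit, the signal lay mostly at the far end. Its SOX2 peaks summed to 6656, of which 5483 came from chr11:115412301-115414350 at its finish and 1173 from its start. Its single CHD7 peak (1362) was also at the finish. Mrpl34 had 1312 for CHD7 and 4486 for SOX2; the gene is shorter than the window, so its start and finish were not separated. Mrpl2 had peaks of both lists at both ends, with sums of 1266 and 4868. Mrpl17 (811 and 4809) and Mrpl40 (797 and 4868) were high for SOX2 and in the middle of the members for CHD7. Mrps28 (1262 and 3225) and Mrpl36 (1239 and 1407) were high for CHD7; the stronger CHD7 peak of Mrpl36 (788) lay at its outer border beside Ndufs6, a complex I gene, with its centre at -2658 bases from the start site in the promoter table.

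CHD7 without SOX2 was seen at Mrps2, Mrps6 and Mrpl49. The Mrps2 peak (537) lay at the outer border of the gene, with its centre at -1916 bases from its start site in the promoter table, and at an end of the neighbouring gene 1700007K13Rik. The Mrps6 peak (478) lay at its start, within 1 kb of an end of Slc5a3, a myo-inositol transporter gene. Mrpl49 had a CHD7 peak of 683 at its start, shared with Fau, which encodes cytosolic ribosomal protein S30 as part of a fusion, and one of 446 at its finish, close to the lowest value in the list.

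The members with no peak at either end were Mrpl1, Mrpl4, Mrpl13, Mrpl21, Mrpl24, Mrpl27, Mrpl33, Mrpl45, Mrpl53, Mrpl57, Mrps5, Mrps10, Mrps18a, Mrps21, Mrps23, Mrps24 and Mrps31. They are spread over both subunits. Of these, Mrps5, Mrpl27, Mrpl57 and Mrpl21 start head to head with another gene. Mrpl24 had no end peak although 7 CHD7 and 16 SOX2 peaks lay in its locus, which is the gene and its flanks of 50 kb.

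Peaks gathered at the starts of the members. Strand is given by the promoter table for 69 members. Of these, 28 (40.6%) had CHD7 within 1 kb of the start border and 7 (10.1%) within 1 kb of the finish border, where 29.2% and 4.54% of the 17491 coding genes with a strand had one. SOX2 was at the start border of 48 (69.6%) and the finish border of 16 (23.2%), against 52.0% and 20.9%. Counted at the start sites of the promoter table, some of which lie inside a gene, CHD7 was again at 28 of 69 (all genes 31.0%) and SOX2 at 47 of 69 (all genes 54.9%). Mrpl22 shows the difference: it counted as SOX2 alone at its borders, while its promoter in the table lay under peaks of both lists.

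The peaks lay mostly over the start site. The centre of a CHD7 peak was a median of 127 bases upstream (-127; interquartile range -375 to -29.5, 28 peaks), and 25 of 28 peaks covered the start site. SOX2 peaks had a median of -67.5 bases (-304 to 118, 50 pairs of a peak and a member), and 38 of 50 covered it. Over all coding genes the medians were -23.5 for CHD7 and -16.5 for SOX2. Of the members' CHD7 peaks 78.6% had their centre within 500 bases of the start site, and 80.3% of those of all genes; for SOX2 the values were 76.0% and 66.7%.

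**Figure D2:**
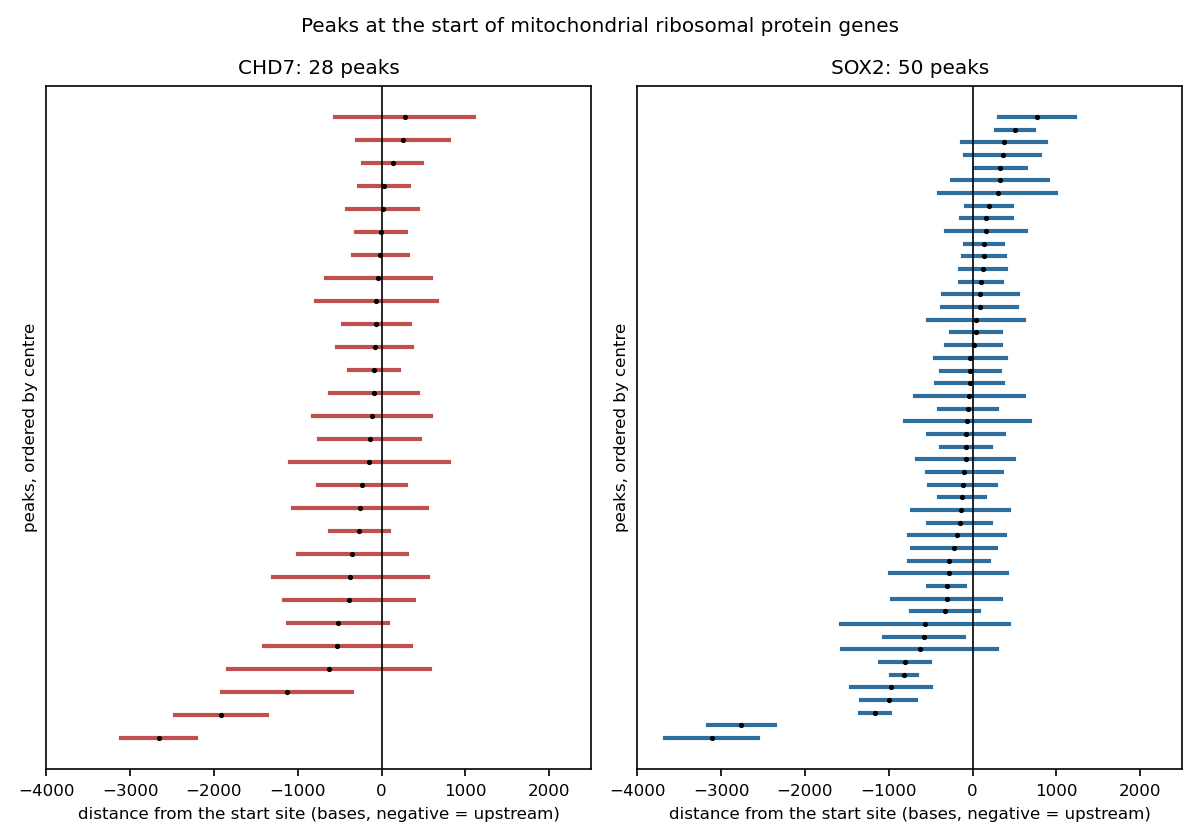
Each line is a peak at the start border of a member, drawn along the distance from its nearest start site (bases, negative values upstream), and the dot is its centre; CHD7 is on the left and SOX2 on the right. Most lines cross the start site (25 of 28 and 38 of 50), and those that lie far upstream belong to genes such as Mrpl36 and Mrpl22, whose outer border is not a start site of the table.

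Many members share their promoter region with another gene. Of the 69 members with a strand, 24 (34.8%) had a start site of a gene on the opposite strand within 1 kb upstream, which 8.48% of all genes with a strand had. The gap was 32 to 935 bases, with a median of 136. Mrpl46 and Mrps11 start 42 bases apart and share 1 SOX2 peak, at chr7:78782751-78783350 (total signal 1437), with no CHD7 peak. Other partners also act in mitochondria, among them Ndufb5, a complex I gene, beside Mrpl47; Sars2, the mitochondrial seryl-tRNA synthetase gene, beside Mrps12; Twnk, the mitochondrial DNA helicase gene, beside Mrpl43; and Ptcd2, a mitochondrial RNA-processing gene, beside Mrps27. Mrpl32 is paired with the proteasome gene Psma2 and Mrpl40 with the histone chaperone gene Hira.

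At these shared promoters a peak cannot be given to either gene. CHD7 was at the start of 13 of the 24 members and SOX2 at 19, and in every one of these the peak also lay within 1 kb of an end of the partner. At their ends CHD7 was found for 54.2% of the 24 members and 63.5% of all 1483 head-to-head genes. For the 45 members without such a partner the value was 35.6%, and 28.4% for all genes of that kind. SOX2 gave 79.2% and 85.2% with a partner, and 71.1% and 57.3% without. Among the 34 members with no end of any other coding gene within 1 kb, CHD7 was at 9 (26.5%), near the 25.2% of all such genes, while SOX2 was at 25 (73.5%) against 54.0%.

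The base composition of the promoters moved with these shares over all coding genes, but not in the same way within the members. Promoters of members held a median of 21 CpG dinucleotides in 300 bases (interquartile range 16 to 26), and those of all genes 15 (4 to 25). Among the 4418 coding genes whose promoter held 16 to 26 CpG, 48.7% had CHD7 at an end and 77.4% had SOX2. The 35 members in this range had CHD7 at 11 (31.4%) and SOX2 at 27 (77.1%). The comparison with genes of like CpG content was a choice made after seeing the data. In it, the share of these 35 members was below the background for CHD7 (its interval, 16.9% to 49.3%, includes it) and at the background for SOX2. Members outside this CpG range were not compared in this way. Members with neither protein were not poor in CpG, with a median of 24 (15 genes with a promoter). The median was 22 in members with both, 18 with SOX2 alone and 39 in the 3 with CHD7 alone. Over all genes it was 4 with neither, 23 with both, 15 with SOX2 alone and 21 with CHD7 alone. The part of CpG content in these shares was not tested further.

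**Figure D3:**
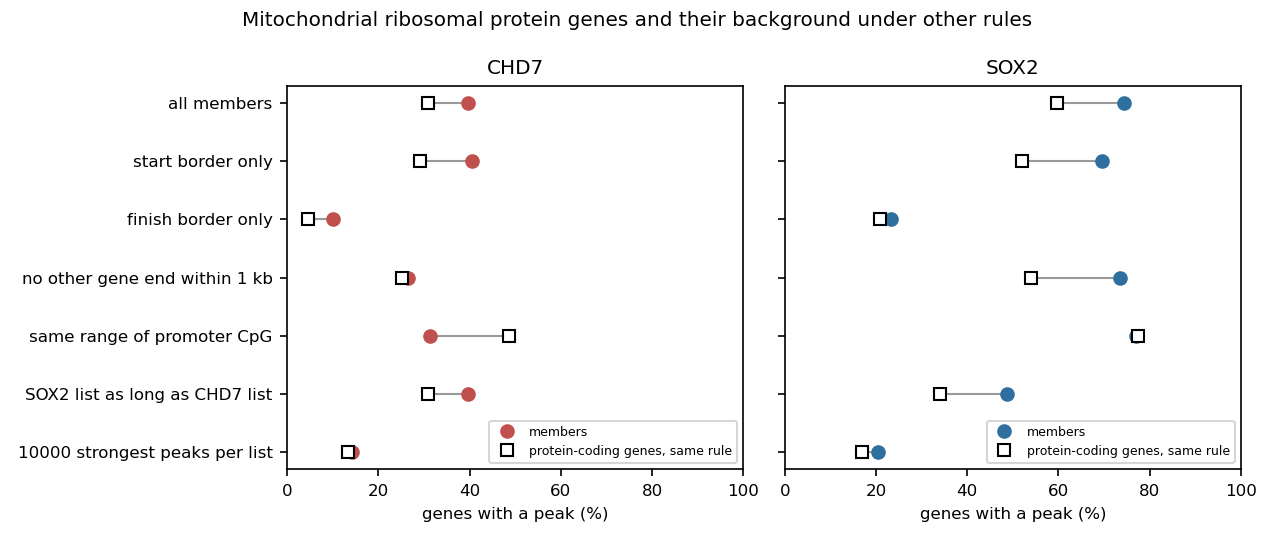
Filled circles give the share of members with a CHD7 (left) or SOX2 (right) peak and open squares the share of protein-coding genes under the same rule, for all genes and for other borders, neighbours, CpG ranges and peak sets. The CHD7 share of all 78 members is above its background over all genes (39.7% and 30.8%). That of the 35 members with 16 to 26 promoter CpG is below the background in the same range (31.4% and 48.7%).

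By total signal, the members' CHD7 peaks ranked like those of all gene ends and their SOX2 peaks higher. The 36 distinct CHD7 peaks at member ends had a median rank above 59.9% of their list (interval 27.3% to 66.9%), and the 6046 at all gene ends 59.4%. By maximum signal the median rank was 36.7% against 51.0%, and by signal per base 38.3% against 45.5%. On these measures the median of the members' CHD7 peaks was below that of all gene ends, but no interval is given for them. Just 1 of the 36, that of Mrps14, was in the strongest 10% of the list (2.78%), where 11.8% of all end peaks were. In the weakest 10% were 6 of them (16.7%, against 8.01%), among them the start peaks of Mrps7, Mrpl12 and Mrpl35. The 72 SOX2 peaks had a median rank of 84.1% (interval 72.5% to 88.5%), and the 15294 at all gene ends 74.2%, a value inside this interval. Of these 72 peaks, 23 (31.9%) were in the strongest 10%, near the 29.1% of all end peaks.

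The peaks of the lists often overlapped at these genes. Of the 36 CHD7 end peaks 28 (77.8%, interval 60.8% to 89.9%) shared at least 1 base with a SOX2 peak, and 85.7% of the CHD7 peaks at all gene ends did. In the other direction 32 of the 72 SOX2 peaks (44.4%, 32.7% to 56.6%) overlapped CHD7, and 35.0% did at all gene ends. The regions of maximum signal themselves shared a base in 9 of the 36 CHD7 peaks (all gene ends 26.4%). Mrpl44 and Mrpl12 had peaks of both lists that did not meet: in Mrpl44 CHD7 was at the start (474) and SOX2 at the finish (938).

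Cores of the factors named for such promoters were found in a larger share of member promoters than of all promoters. The ETS core CCGGAAG was in 26 of 75 member promoters (34.7%, interval 24.0% to 46.5%), and in 11.6% of 21262 promoters of coding genes, or 19.1% of those of genes with 16 to 26 CpG. The NRF1 core GCGCATGCG was in 7 (9.33%, interval 3.84% to 18.3%), beside 2.35% of all and 4.07% of those with like CpG. This interval includes the value for like CpG. The YY1 core AAGATGGCG was in 8 (10.7%, interval 4.72% to 19.9%), beside 1.83% of all and 3.37% of those with like CpG. At least one of the ETS, NRF1 and YY1 cores was in 36 (48.0%), beside 14.8% of all and 24.9% of those with like CpG. An ETS and a YY1 core that shared bases were found in 0 of the 75 and 0 of the 21262 promoters, which does not set the members apart. CCAAT, the NFY box, was in 40.0% of the member promoters and 38.2% of all. The short SOX cores ACAATG and ACAAAG were in 7 and 8 of 75 (9.33% and 10.7%), and in 11% and 16.8% of all promoters. Among promoters of genes with 16 to 26 CpG, these shares were 6.45% and 13.4%. The members' share of ACAATG lay between its backgrounds, and that of ACAAAG below both of its own. The members' intervals, 3.84% to 18.3% and 4.72% to 19.9%, include these backgrounds. Each motif was searched on both strands; promoters of one gene and of head-to-head members overlap, so the 75 are not independent.

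Promoters with such cores were found in members with and without peaks. At least one ETS, NRF1 or YY1 core was in 13 of 32 promoters of members with both proteins, 14 of 25 with SOX2 alone, 0 of 3 with CHD7 alone and 9 of 15 with neither. The ETS core was in 10 of 32, 8 of 25, 0 of 3 and 8 of 15, and over all genes in 15.9%, 12.7%, 10.4% and 7.05%. Over all genes at least one of the 3 cores was in 20.9% of promoters of genes with both and 8.54% of those with neither. The share was 16.1% with SOX2 alone and 15.8% with CHD7 alone. Mrps18a, Mrpl27 and Mrpl53 hold ETS cores and no end peak, and Mrps14 and Mrpl50 hold none of the cores under strong peaks. Among members with the highest SOX2 end signals, Mrps18b, Mrpl58, Mrpl18, Mrpl17 and Mrpl34 hold an ETS core. Mrpl2 and Mrpl40, like Mrpl50, hold none of the 3 cores. A match is a run of letters in a window, not a measured site.

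Within 50 kb, the median peak numbers around the members were near those around other genes. Closer in and away from gene ends the mean numbers were lower. The CHD7 medians did not differ there (1 for members and all genes in each case). For SOX2 they were 2 with 5 kb (all genes 3) and 6.50 away from ends (all genes 8). The median locus had 2 CHD7 peaks (0 to 7; all genes 2) and 9 SOX2 peaks (3 to 19; all genes 10). No CHD7 peak was found in the loci of 10 members (12.8%; all genes 17.1%), and every member had SOX2 in its locus. With 5 kb on each side, the mean was 0.718 CHD7 peaks (all genes 0.931) and 2.08 SOX2 peaks (4.28), where the median gene length was 7.69 kb for the members and 17.2 kb for all genes. Away from all gene ends the locus held a mean of 1.06 CHD7 peaks (1.51) and 6.67 SOX2 peaks (9.09). The loci of Mrps28 and Mrpl24 held the most CHD7 peaks, 7 each, followed by Mrpl51 and Mrpl2 with 6 and Mrpl49 with 5, a count it shares with Mrps18b. The most SOX2 peaks were at Mrpl20 and Mrpl58, 19 each, then Mrpl41 (18), Mrps28 and Mrpl38 (17 each).

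**Figure D4:**
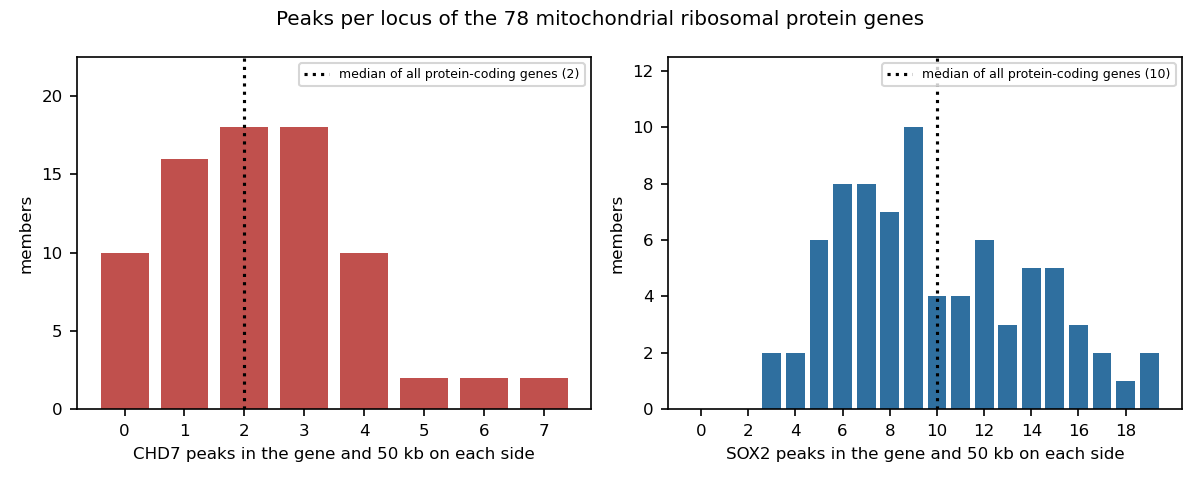
Bars count members by the number of CHD7 (left) or SOX2 (right) peaks in the gene and 50 kb on each side, and dotted lines mark the median of all protein-coding genes. The members spread around these medians, from 0 to 7 for CHD7 and from 3 to 19 for SOX2.

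Counted once each, the loci held 181 CHD7 and 767 SOX2 peaks. Of the CHD7 peaks 36 lay at member ends, 63 at ends of other coding genes and 82 (45.3%) away from any end; in the loci of all genes 73.9% lay away from ends. For SOX2 the counts were 72, 179 and 516 (67.3%, and 86.4% in all loci). Loci of all genes share many peaks, and their CHD7 counts sum to 54241 in a list of 33035. Averaged per locus, the difference was smaller: 1.06 of 2.33 CHD7 peaks lay away from ends for members and 1.51 of 2.48 for all genes. The means for SOX2 were 6.67 of 9.90 and 9.09 of 11.6. SOX2 overlapped 115 of the 181 CHD7 peaks (63.5%, interval 56.1% to 70.5%), and 67.9% in all loci. The long gene Mrps28 (121712 bases) is an example of peaks within the gene body: a CHD7 peak at chr3:8831801-8833150 had a total signal of 2910 and a SOX2 peak at chr3:8865351-8867350 had 8621, above 99.5% of the SOX2 list, and each overlapped a peak of the other list. A place near Mrpl1, at chr5:96292401-96293800, held strong peaks of both (3279 for CHD7 and 6040 for SOX2) 25.7 kb from a gene without end peaks.

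Other genes of mitochondrial translation varied in their shares, from 15.4% to 80.0% for CHD7 (all genes 30.8%) and from 60.0% to 95% for SOX2 (all genes 59.7%); differences from the members were not tested. Of ribosomal proteins under other symbols, CHD7 was at 4 of 5 and SOX2 at 3: Dap3 (1544 and 1818), Ptcd3 (464 and 1642) and Aurkaip1 (437 and 1349) had both, Chchd1 CHD7 alone (569) and Gadd45gip1 neither. Translation factors had CHD7 at 2 of 13 and SOX2 at 9; the release factor gene Mtrf1l (1649 and 13694) and Guf1 (856 and 4047) had both. Ribosome assembly genes had CHD7 at 10 of 22 and SOX2 at 17, with Noa1 (1708 and 4809), Mettl17 (1758 and 4780) and Mterf3 (1079 and 8328) as examples. The list of mitochondrial aminoacyl-tRNA synthetase genes also holds Qrsl1, Gatb and Gatc, and shares Tars2 with that of the translation factors. It had CHD7 at 11 of 20 and SOX2 at 19 (95%, interval 75.1% to 99.9%), a share above the 74.4% of the members. Lars2, a leucyl-tRNA synthetase gene known from Perrault syndrome, in which hearing is lost, had end signals of 4322 and 23634. These Lars2 sums cover both ends and were not split by end. How the control and reads that match several places were treated is not stated, and a link of these values to hearing was not tested. Fars2 (1385 and 6920) and Nars2 (1161 and 2756) also had both.

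**Figure D5:**
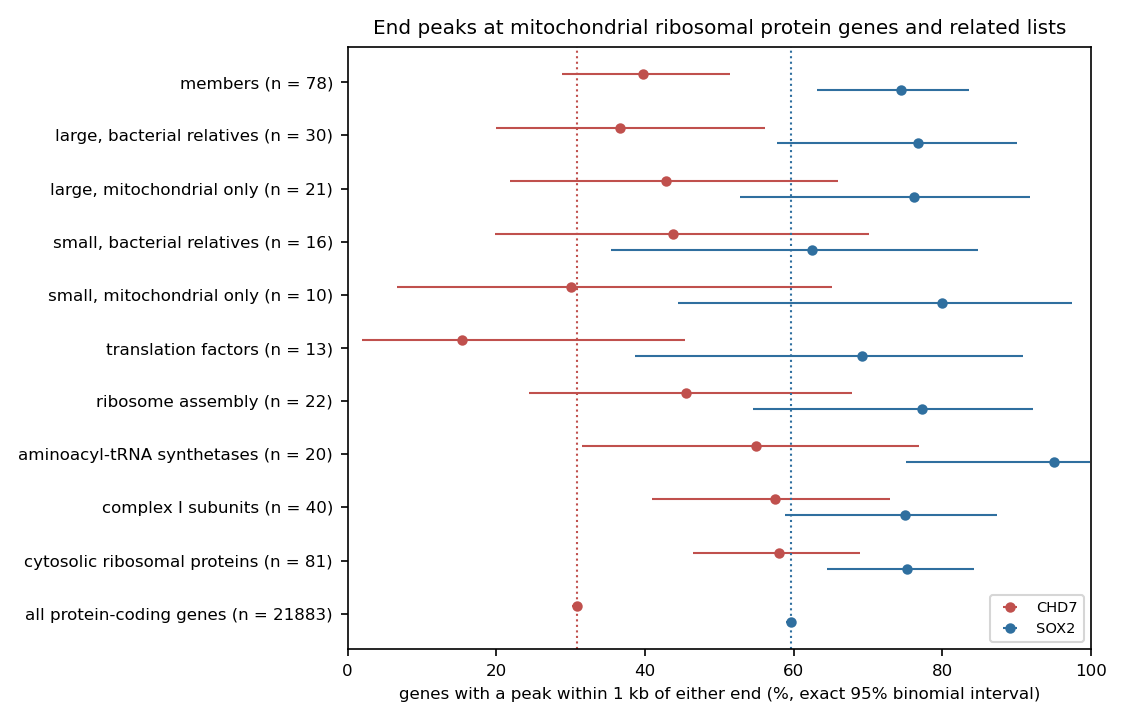
Points give the share of genes with a CHD7 or SOX2 peak within 1 kb of either end, bars the exact 95% binomial interval, and dotted lines the shares of all 21883 protein-coding genes. The CHD7 share of the members is 39.7%, and those of complex I and cytosolic ribosomal protein genes are 57.5% and 58.0%; the SOX2 counts of these 3 lists are 58 of 78, 30 of 40 and 61 of 81.

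Complex I and the cytosolic ribosome give larger lists of genes for parts of one particle. CHD7 was at 23 of 40 nuclear complex I genes (57.5%, interval 40.9% to 73.0%) and 47 of 81 cytosolic ribosomal protein genes (58.0%, 46.5% to 68.9%), beside 39.7% of the members; the difference was not tested. SOX2 was at 75% and 75.3%, beside 74.4% of the members. Ndufa11 (2122 and 10380) and Rps29 (3698 and 22256) led these lists, with sums above those of Mrps18b. The median promoter CpG was 19.5 and 21.0 in these lists and 21.0 in the members.

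Mrps7, Mrpl50 and Mrps2 have human counterparts known from disorders that include hearing loss. CHD7 was at 3 of these 3 (interval 29.2% to 100%, which includes the 30.8% of all genes) and SOX2 at 2, too few genes to set them apart from the other members. Mrps7 had a CHD7 peak of 451, close to the lowest in the list, and a SOX2 peak of 3167 over the same start, shared with Gga3. Mrpl50 had the values given above, and Mrps2 had CHD7 alone.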

How the data were processed

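CUT&Tag peaks of 1 CHD7 and 1 SOX2 library were analysed. Per the submitters' processing notes, the tools were Bowtie2, deepTools and SEACR and the build mm10. For their settings, the scaling and the treatment of duplicates and control, nothing is stated. The deposited values of a peak are its total and maximum coverage signal, as the authors' lists give them; depth is not in the lists. Signal was ranked only within a list.

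A gene end was its outer border in the RefSeq table with 1 kb on each side, and a locus the gene with 50 kb on each side. Strand, start sites and promoter sequences came from the RefSeq promoter table of GRCm38.p6, which holds 69 members, with several start sites for 3 of them, and 17491 coding genes. The table has no exons, so positions within genes carry no annotation. Overlap meant at least 1 shared base. CpG was counted in the promoter with the most CpG per gene.

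The members and lists were chosen with earlier results of these data known, so no list test was run. Named members were those with the highest end signals (8 per list), with CHD7 alone or neither, with the most locus peaks (5 per list), the Mrps18 paralogs, Mrps36, Mrps7 and Mrpl50; from other lists up to 3 genes with both; Mrpl12, Mrpl22, Mrpl32, Mrpl35, Mrpl43, Mrpl44, Mrpl46, Mrpl47, Mrps11, Mrps12 and Mrps27 with their partners were named after their values were seen. Counting was tested on simulated data. Scripts ran in Python 3.11.15 with scipy 1.17.1 for intervals, pandas 2.3.3 and numpy 2.4.6 for tables, and matplotlib 3.10.9 for figures. The alternatives on CpG range and on start sites of the table were chosen after seeing the data.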

Additional observations from a re-analysis of the deposited data

How the results depend on the processing

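With 1 library per antibody no library could be left out, and no paired analysis was possible because each antibody had 1 library. End windows of 500 bases or 2 kb, start sites of the table, other symbols, Mrps36 left out and the CpG range moved no share of members outside its interval. The CpG range did move the comparison with other genes. In it the shares were 31.4% for CHD7, 77.1% for SOX2 and 28.6% for both (genes of that range 48.7%, 77.4% and 45.0%). Over all genes the backgrounds were 30.8%, 59.7% and 28.3%. With the 10000 strongest peaks of each list the shares were 14.1% for CHD7, 20.5% for SOX2 and 11.5% for both (all genes 13.3%, 16.9% and 9.06%), and with the stronger 50% of peaks 25.6%, 60.3% and 23.1% (19.2%, 47.7% and 17.7%). A SOX2 list as long as the CHD7 list gave 48.7% for SOX2 (34.0%). Finish borders alone gave 10.1%, 23.2% and 5.80% (all genes with a strand 4.54%, 20.9% and 3.32%). Members without another gene end within 1 kb gave 26.5% for CHD7 (all such genes 25.2%). Peaks summed over loci, 182 for CHD7 and 772 for SOX2, became 56 and 162 with 5 kb on each side (means 0.718 and 2.08, all genes 0.931 and 4.28). With 100 kb they were 336 and 1481 (means 4.31 and 19.0, all genes 4.11 and 19.4). The stronger 50% of peaks gave 95 and 432 (means 1.22 and 5.54, all genes 1.30 and 6.22). Away from all gene ends 83 CHD7 peaks were left (mean 1.06, all genes 1.51). The CHD7 overlap was 25% for regions of maximum signal and 90.5% for the stronger 50% of peaks (all gene ends 26.4% and 89.1%). The median rank of SOX2 end peaks was 69.5% by maximum signal and 63.3% by signal per base (all gene ends 55.2% and 57.8%). For CHD7 these ranks were 36.7% and 38.3% (51.0% and 45.5%). The summed counts move by construction, with the window or the list; for the shares, overlaps and ranks the cause was not tested. Read depth, which limits which peaks could be found, is unknown.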

Other observations

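The RefSeq table also lists 6 pseudogenes of the members; a pseudogene is a copy taken to make no working protein. None of the 6 had a CHD7 or SOX2 peak within 1 kb of an end, and their loci held 1 to 2 CHD7 and 2 to 11 SOX2 peaks. The share over all pseudogenes was not counted, and 37.8% of protein-coding genes also had neither. With so few copies this does not set them apart. The copies are Mrpl23-ps1, Mrpl48-ps, Mrpl27-ps and Mrps36-ps1 to Mrps36-ps3. The treatment of reads that match a gene and its copy is not stated.

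The strongest CHD7 peaks away from gene ends in the members' loci included narrow ones. One near Mrpl34, at chr8:71433051-71433300, was 250 bases wide with a total signal of 5615 and a maximum above 99.9% of the CHD7 list, and one near Mrpl32, at chr13:14585001-14585400, was 400 bases wide with 4317. Neither overlapped a SOX2 peak. The next, near Mrpl1 and in SOX2 as well, was 1400 bases wide.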
